A study of Homo sapiens with 4 samples.

Results

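The beta-catenin pathway was followed through 10 genes chosen by name: CTNNB1, GSK3B, APC, AXIN1, AXIN2, TCF7L2, LEF1, DKK1, NKD1 and ZNRF3. Each had 1 row among the 18398 RefSeq transcripts in the deposited tables, which carry 18382 different symbols. The study transfected the human hepatocellular carcinoma lines Huh1 and Huh7 with CDCA8siRNA, an siRNA against the chromosomal passenger gene CDCA8 (borealin), or with NCsiRNA, a negative control siRNA. Both siRNAs were given at 15 nM and RNA was collected after 48 h, so the control cells had also been transfected. Each of the 4 combinations of line and siRNA was sequenced as 1 library, and 1 siRNA sequence against CDCA8 was used. One question of the study was how silencing CDCA8 acts on beta-catenin signalling. RNA levels were measured here, not beta-catenin protein, its phosphorylation or its place in the cell.

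In the canonical Wnt pathway, beta-catenin (CTNNB1) is bound in the cytoplasm by a complex built on APC and the axins, phosphorylated by kinases that include GSK3B, and degraded. When Wnt ligands engage their receptors the complex is inhibited, beta-catenin accumulates and enters the nucleus, where it joins TCF/LEF factors and turns on target genes. Several targets feed back on the pathway, among them AXIN2, NKD1, ZNRF3 and DKK1, and in the liver the pathway sets the gene programme of hepatocytes around the central vein and is often activated in hepatocellular carcinoma.

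Levels are given in RPKM, a read count divided by transcript length and by library depth. The value that 1 read takes in each table implied 12197606 to 13384836 reads per library. CDCA8 itself measured 24.1 RPKM with NCsiRNA and 5.86 RPKM with CDCA8siRNA in Huh1, and 51.5 and 7.36 RPKM in Huh7. Its ratio between siRNAs was 0.243 in Huh1 and 0.143 in Huh7, and it was lower in both lines (log2 difference −2.26 ± 0.17 SE, adjusted p = 0.0019, limma with Benjamini-Hochberg adjustment). All 10 hepatocyte lineage markers exceeded 1 RPKM in every library, with summed levels of 5238 and 4022 RPKM in Huh1 and 3323 and 2335 RPKM in Huh7, the NCsiRNA library first. Within each line the sum was lower with CDCA8siRNA, and ALB made up most of the Huh1 sums, at 3447 and 2684 RPKM. AFP went the other way in Huh1 (24.8 and 27.5 RPKM) and TTR in Huh7 (29.3 and 48.5 RPKM). AFP, TTR and FGB stood higher in Huh7 than in Huh1 with each siRNA, against the order of the sums. Of 4 leukocyte markers, CD68 alone passed 1 RPKM in any library, and the 2 endothelial markers analysed were at or near 0.

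The promoter sequences of DKK1 and CTNNB1 are shown for 2 reasons. Of the 8 genes tested among the 10, DKK1 had the largest log2 differences between siRNAs within each line and between lines. CTNNB1 was the most abundant of the 10 genes. Both are 300-base windows from RefSeq on build GRCh38.p14, running from 250 bases before to 50 bases after the annotated start on the plus strand. Windows were found for 7 of the 10 genes, and none for AXIN2, NKD1 and ZNRF3. Capitals in the DKK1 window (chr10:52314031-52314330) mark CTTTGAA and CTTTGTT, TCF-type letters, and TATAAA; none of these letters was found in the CTNNB1 window (chr3:41199255-41199554).
DKK1: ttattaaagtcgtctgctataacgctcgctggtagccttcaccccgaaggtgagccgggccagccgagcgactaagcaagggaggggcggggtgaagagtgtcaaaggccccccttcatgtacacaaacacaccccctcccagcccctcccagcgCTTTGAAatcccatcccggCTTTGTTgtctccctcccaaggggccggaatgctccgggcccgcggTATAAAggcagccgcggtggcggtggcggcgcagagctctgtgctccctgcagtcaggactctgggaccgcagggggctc
CTNNB1: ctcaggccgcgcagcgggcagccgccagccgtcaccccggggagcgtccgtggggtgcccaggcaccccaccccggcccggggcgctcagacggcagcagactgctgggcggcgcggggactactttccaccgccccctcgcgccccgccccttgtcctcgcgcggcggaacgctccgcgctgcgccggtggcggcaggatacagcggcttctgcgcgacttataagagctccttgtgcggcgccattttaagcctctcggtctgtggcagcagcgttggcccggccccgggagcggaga
The search used CTTTGAA or CTTTGAT and also CTTTGTA or CTTTGTT on both strands and TATAAA on the gene's strand. At least 1 TCF-type match was present in 13.8% of 35116 such windows and at least 2 in 1.58%, and TATAAA was present in 7.33%. The DKK1 matches began 95, 76 and 30 bases before the start. One of the 3 TCF7L2 windows held a CTTTGTT 133 bases before its start, and the windows of GSK3B, APC, AXIN1 and LEF1 held no match. A match describes the letters of the window and not a binding site. The share of G and C was 63.7% in the DKK1 window and 74.0% in the CTNNB1 window.

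CTNNB1, the pathway's effector, stood far above the other 9 genes in Huh1 and highest in Huh7 as well. With NCsiRNA the order in Huh1 was CTNNB1, GSK3B, TCF7L2, APC, AXIN1, ZNRF3, AXIN2, DKK1, NKD1 and LEF1. Its level there was 98.6 RPKM, 9.45 times that of GSK3B (95% counting interval 8.83 to 10.1), and 96.3% of all rows lay below it. GSK3B and TCF7L2 could not be separated by counting error in that library (ratio 1.0, 0.905 to 1.11), and neither could ZNRF3 and AXIN2 (1.07, 0.891 to 1.28). In Huh7 with NCsiRNA, DKK1 held the place after CTNNB1, the ratio of CTNNB1 to DKK1 being 2.81 (2.65 to 2.98). AXIN1 and APC were not separable there (1.14, 0.98 to 1.32). LEF1 and NKD1 stayed under 1 RPKM in all 4 libraries. Counting intervals cover sampling of reads only, since no condition was repeated. They rest on the reads behind each RPKM value, which were recovered from the 4 values and are divided among places where reads map to several.

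**Figure D1:**
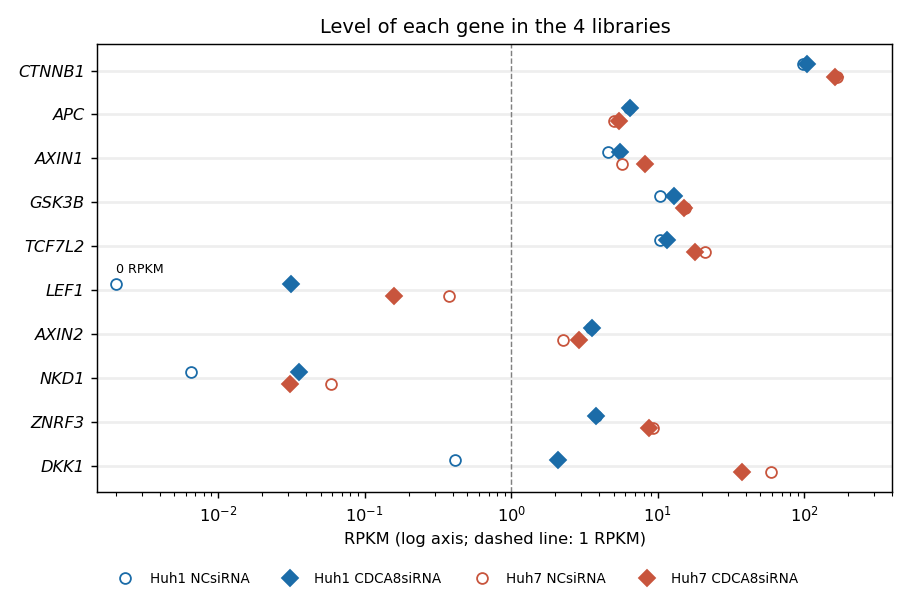
RPKM of the 10 genes on a log axis, ordered by role from the effector and the destruction complex down to the feedback inhibitors, with 1 point per library. Open circles are NCsiRNA and filled diamonds CDCA8siRNA; LEF1 in Huh1 with NCsiRNA was 0 RPKM and is drawn at the left edge. CTNNB1 lies furthest right, LEF1 and NKD1 lie left of 1 RPKM, and DKK1 spans 0.414 to 59.3 RPKM.

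CTNNB1 measured 98.6 RPKM with NCsiRNA and 105 RPKM with CDCA8siRNA in Huh1, and 166 and 161 RPKM in Huh7. Both Huh7 libraries lay above both Huh1 libraries, and within a line the libraries differed little. As differences in log2(RPKM + 1), CDCA8siRNA minus NCsiRNA, these were 0.085 (counting SD 0.0285, the spread that the number of reads alone gives) for Huh1 and −0.0434 (counting SD 0.0235) for Huh7, and the Huh7 value became 0.0066 after quantile normalization of the 4 libraries. With 4910 to 7548 reads behind each value, the ratio was 1.06 (95% counting interval 1.02 to 1.1) in Huh1 and 0.97 (0.939 to 1.0) in Huh7. In the fit over both lines the log2 difference was 0.02 ± 0.08 (SE) with an adjusted p of 0.906 (limma, Benjamini-Hochberg). Its close relative JUP (plakoglobin), which can also sit in adherens junctions, measured 5.07 and 5.75 RPKM in Huh1 and 18.3 and 28.8 RPKM in Huh7, and was not called (adjusted p = 0.122, limma). In bulk RNA, fewer cells expressing a gene and less RNA per cell cannot be told apart.

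No gene of the destruction complex was called for CDCA8siRNA, and AXIN1 came nearest. AXIN1, the scaffold of the complex, measured 4.54 RPKM with NCsiRNA and 5.55 RPKM with CDCA8siRNA in Huh1, and 5.69 and 8.22 RPKM in Huh7. The CDCA8siRNA library was the higher in each line. The ratios were 1.22 (95% counting interval 1.02 to 1.47) and 1.45 (1.23 to 1.7), from 222.5 to 369 reads. Over both lines the log2 difference was 0.35 ± 0.12 (SE), with an unadjusted p of 0.0185 and an adjusted p of 0.128 (limma, Benjamini-Hochberg), so it failed the correction. APC, which holds beta-catenin in the complex, measured 6.39 and 6.44 RPKM in Huh1 and 5.01 and 5.44 RPKM in Huh7. Each pair lay within its counting error, with ratios of 1.01 (0.92 to 1.11) and 1.09 (0.976 to 1.21). GSK3B, the kinase that marks beta-catenin for degradation, measured 10.4 and 12.9 RPKM in Huh1 and 15.4 and 15.2 RPKM in Huh7. Its ratio was 1.24 (1.14 to 1.35) in Huh1 and 0.987 (0.914 to 1.07) in Huh7, so the CDCA8siRNA library stood higher in Huh1 alone, beyond counting error there. Its paralog GSK3A was near level with 27.4 and 26.4 RPKM in Huh1 and 36.8 and 37.2 RPKM in Huh7, and the APC paralog APC2 stayed between 0.222 and 0.314 RPKM.

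TCF7L2, the main TCF factor measured here by level, went opposite ways in the 2 lines. It measured 10.4 RPKM with NCsiRNA and 11.6 RPKM with CDCA8siRNA in Huh1, and 21.2 and 18.0 RPKM in Huh7. The ratio was 1.11 (0.993 to 1.25) in Huh1, an interval that holds 1, and 0.848 (0.776 to 0.928) in Huh7. LEF1, another factor that carries beta-catenin on DNA, was 0 RPKM in Huh1 with NCsiRNA and 0.0316 RPKM with CDCA8siRNA, and 0.376 and 0.158 RPKM in Huh7. These values rest on 0, 1.5, 16.5 and 7 reads. A count of 0 allows up to 3 reads, or 0.0622 RPKM, against which the 16.5 reads of the Huh7 NCsiRNA library were at least 6.03-fold higher. With the counting error of both libraries the exact interval of that ratio began at 4.53. The Huh7 ratio between siRNAs was 0.422, with an interval of 0.144 to 1.04, so no change of LEF1 was detectable at this depth. The other TCF factors divided between the lines: TCF7 measured 4.31 and 4.32 RPKM in Huh1 and 1.61 and 1.2 RPKM in Huh7, while TCF7L1, often a repressor, measured 0.206 and 0.286 RPKM in Huh1 and 7.56 and 7.52 RPKM in Huh7. TCF7 was therefore higher in Huh1 (log2 difference Huh7 minus Huh1 −1.15) and TCF7L1 higher in Huh7 (2.78), both called by limma (adjusted p = 0.000114 and 4.93e-07). TCF7L1 reached 1 RPKM only in Huh7 and so entered the test through the line where it was high.

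AXIN2, the feedback scaffold that is widely read as a marker of beta-catenin activity, measured 3.53 RPKM with NCsiRNA and 3.55 RPKM with CDCA8siRNA in Huh1, and 2.27 and 2.91 RPKM in Huh7. The Huh1 libraries were level and the Huh7 libraries were lower than both. The ratio between siRNAs was 1.01 (0.821 to 1.23) in Huh1 and 1.28 (1.0 to 1.65) in Huh7, from 117 to 200 reads, and the Huh1 log2 difference of 0.0054 became −0.0517 under quantile normalization. Over both lines the log2 difference was 0.13 ± 0.14 (SE, adjusted p = 0.621, limma). ZNRF3, a membrane ubiquitin ligase that removes Wnt receptors, measured 3.76 and 3.79 RPKM in Huh1 and 9.31 and 8.77 RPKM in Huh7. Its ratios between siRNAs were 1.01 (0.862 to 1.18) and 0.942 (0.848 to 1.05), both within counting error. Its partner in that role, RNF43, had the reverse order between lines, with 9.07 and 8.53 RPKM in Huh1 and 4.08 and 4.13 RPKM in Huh7. NKD1, which restrains Dishevelled, measured 0.00652 and 0.0359 RPKM in Huh1 and 0.0592 and 0.0309 RPKM in Huh7, from 1.52 to 12.6 reads. Its ratio between siRNAs was 5.5 in Huh1 with an interval of 0.81 to 39.2, and 0.522 in Huh7 (0.181 to 1.44), so no change was detectable, and its paralog NKD2 was also under 1 RPKM throughout, at 0.0422 to 0.159 RPKM.

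DKK1, a secreted inhibitor that binds the LRP co-receptors, gave the largest log2 differences of the 8 genes tested, between siRNAs in each line and between lines. It measured 0.414 RPKM with NCsiRNA and 2.1 RPKM with CDCA8siRNA in Huh1, and 59.3 and 37.5 RPKM in Huh7. These are 10, 50, 1305 and 830 reads. The CDCA8siRNA library was the higher in Huh1 and the lower in Huh7. The ratio was 5.07 in Huh1 (95% counting interval 2.54 to 11.2) and 0.632 in Huh7 (0.579 to 0.69), each beyond the counting error of its pair of libraries. Expressed as log2(RPKM + 1), which understates the change of low genes, the differences were 1.13 and −0.65. The difference between those responses, Huh7 minus Huh1, was −1.78 (counting SD 0.202), and of the 12148 genes tested 3 had a value at or below it, DKK1 included. Over both lines the opposite directions left a log2 difference of 0.24 ± 0.32 (SE, adjusted p = 0.707, limma). With a pseudocount of 0.1 in place of 1 RPKM the Huh1 difference was 2.10 and that over both lines 0.72 (adjusted p = 0.454, limma; 0.454 to 1.0 over the alternatives). The DKK1 window with its TATAAA and both TCF-type matches is the one printed above.

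**Figure D2:**
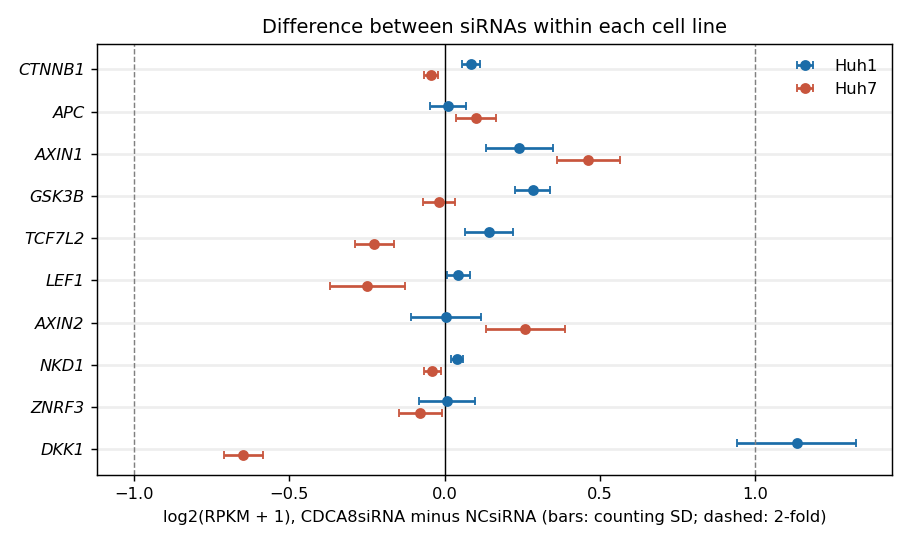
Difference in log2(RPKM + 1), CDCA8siRNA minus NCsiRNA, for each gene in Huh1 and in Huh7, from 1 library per condition, with the counting SD as a bar and dashed lines at 2-fold. DKK1 lies at 1.13 in Huh1 and −0.65 in Huh7; AXIN1 is right of 0 in both lines, and the other genes lie between −0.25 and 0.28.

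None of the 8 genes that passed the minimum of 1 RPKM in at least 1 library was called for CDCA8siRNA over both lines at an adjusted p under 0.05 (limma), and 1 of them, AXIN1, had an unadjusted p under 0.05. Over all 12148 genes tested, 6.39% were called, 454 higher and 322 lower with CDCA8siRNA, and 22.8% had an unadjusted p under 0.05. LEF1 and NKD1 did not reach the minimum and were not tested. Within Huh1, 1 of the 8 genes, DKK1, differed by at least 2-fold between the siRNAs, against 0.445% of all genes tested. Within Huh7, 0 of the 8 differed by 2-fold, against 1.5% of all genes. The median of the 8 log2 differences over both lines was 0.09, beside 0.03 over all genes.

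Of the 10 genes, 7 had opposite signs in the 2 lines: CTNNB1, GSK3B, TCF7L2, LEF1, DKK1, NKD1 and ZNRF3, each higher with CDCA8siRNA in Huh1 and lower in Huh7. Among the 8 tested genes 5 had opposite signs, and among all genes tested 31.7% had them, a share that counts both directions. The signs of ZNRF3, APC and AXIN2 in Huh1 and that of CTNNB1 in Huh7 turned under quantile normalization. Those of ZNRF3, APC and AXIN2 in Huh1 also turned under upper quartile scaling, to −0.0033, −0.0029 and −0.0066. Under both settings APC and AXIN2 had opposite signs in the lines, and ZNRF3 was lower with CDCA8siRNA in each line. The difference between responses exceeded 3 counting SDs for DKK1, GSK3B (3.9), TCF7L2 (3.74) and CTNNB1 (3.48). It was 0.772 counting SDs for ZNRF3. Whether the lines differ beyond the spread of repeated cultures could not be tested with 1 library per condition.

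Of the 8 tested genes, 6 were called between Huh7 and Huh1, all of them higher in Huh7, against 71.2% of all genes tested, so this share of 75.0% is near the background. Over all genes tested, 5162 were called higher in Huh7 and 3492 lower. The median over all genes was itself 0.141 higher in Huh7. DKK1 had the largest value, a log2 difference of 4.52 ± 0.32 (SE, adjusted p = 3.73e-06, limma), with ratios of 143 with NCsiRNA (77.6 to 299) and 17.9 with CDCA8siRNA (13.4 to 24.3). With NCsiRNA, 18 of all genes tested had a difference at least as large as that of DKK1, itself included. ZNRF3 differed by 1.07 ± 0.12, TCF7L2 by 0.78 ± 0.12 and CTNNB1 by 0.68 ± 0.08 on the log2 scale (SE, limma). On the log2(RPKM + 1) scale DKK1 and ZNRF3 were at least 2-fold higher in Huh7 with NCsiRNA, beside 26.7% of all genes that differed by as much in either direction. TCF7L2 lay just under that line at 0.96 on this scale, with a ratio of RPKM of 2.04 (1.84 to 2.26).

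Among the destruction complex genes of the 10, AXIN1 was higher in Huh7 by 0.38 (adjusted p = 0.0194) and GSK3B by 0.37 (adjusted p = 0.0179, limma), and both calls were lost under quantile normalization. AXIN2 and APC were lower in Huh7 by values that missed the threshold, −0.35 (adjusted p = 0.0509) and −0.25 (adjusted p = 0.0786, limma). Both passed it under quantile normalization, at −0.61 and −0.43, and under upper quartile scaling. The all-gene median fell by 0.129 under quantile normalization with NCsiRNA. NKD1 was 9.07 times higher in Huh7 with NCsiRNA (1.61 to 65.1) and 0.861 times with CDCA8siRNA (0.291 to 2.97). Huh7 also carried RNA of fibroblast or stellate markers, which summed to 140 and 184 RPKM in Huh7 and to 0.187 and 0.17 RPKM in Huh1. COL1A1 and COL1A2 made up most of it, 3 of the 5 markers passed 1 RPKM in any library, and the part of these genes in the line differences was not tested.

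Around the 10 genes, 124 pathway genes were listed by role, of which 121 were analysed here and 76 passed the minimum. For CDCA8siRNA over both lines, 2 were called higher and 2 lower, or 5.26% against 6.39% of all genes. DKK3, a secreted relative of DKK1, measured 3.99 and 5.97 RPKM in Huh1 and 31.1 and 52.3 RPKM in Huh7 and rose by 0.61 ± 0.11 on the log2 scale (SE, adjusted p = 0.0184, limma). AES, a short Groucho-family protein, measured 55.1 and 92.4 RPKM in Huh1 and 68.3 and 94.8 RPKM in Huh7 and rose by 0.60 ± 0.09 (adjusted p = 0.0118, limma). PORCN, the acyltransferase that lipidates Wnt ligands for secretion, measured 2.14 RPKM with NCsiRNA and 1.27 RPKM with CDCA8siRNA in Huh1, and 4.08 and 1.77 RPKM in Huh7, and fell by 0.67 on the log2 scale (adjusted p = 0.0436, limma). FZD5, a Wnt receptor, measured 21.2 and 15.6 RPKM in Huh1 and 38.2 and 26.5 RPKM in Huh7 and fell by 0.47 (adjusted p = 0.029, limma).

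**Figure D3:**
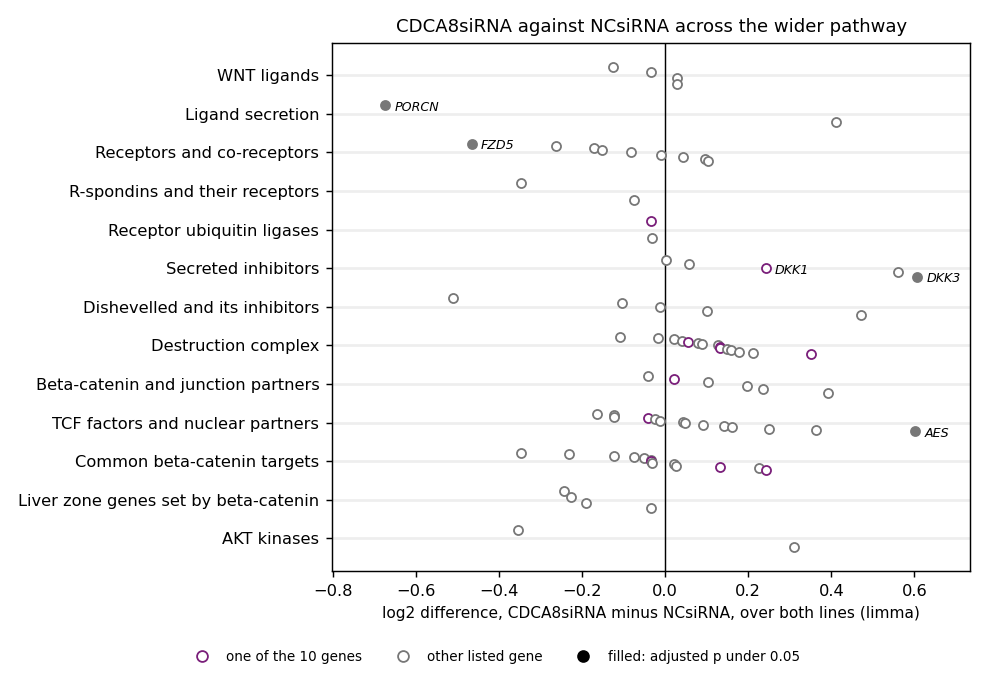
log2 difference of each tested pathway gene, CDCA8siRNA minus NCsiRNA over both lines (limma), by role, with the 10 genes in purple and genes past an adjusted p of 0.05 filled. PORCN and FZD5 are filled on the left and DKK3 and AES on the right, and no purple point is filled; a gene in more than 1 list is drawn in each.

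By role, the calls for CDCA8siRNA were 0 of 15 destruction complex genes, 1 of 14 TCF factors and nuclear partners, 1 of 9 receptors and co-receptors, and 0 of 13 common beta-catenin targets. Over all genes tested 6.39% were called, and these sets are too small to be told apart from that share. The median log2 difference of those targets was −0.03, beside 0.03 over all genes. In 9 of the 13 the lines had opposite signs, in either direction, against 31.7% of all genes tested. Several of these signs rest on values near 0, such as 0.0031 for TCF7 and 0.0089 for ZNRF3 in Huh1 and −0.015 for CD44 in Huh7. RNF43 and SP5 were lower with CDCA8siRNA in Huh1 and higher in Huh7, the reverse of the rest. LGR5, an R-spondin receptor and a known target, measured 0.0649 and 0.079 RPKM in Huh1, from 5 and 6 reads, and 9.43 and 5.35 RPKM in Huh7. In Huh7 its ratio between siRNAs was 0.568 (0.499 to 0.645), beside 0.632 for DKK1. TNFRSF19, another target, measured 0.0943 and 0.186 RPKM in Huh1 and 21.5 and 17.7 RPKM in Huh7, with a Huh7 ratio of 0.823 (0.744 to 0.908). On the log2 scale AXIN2 (0.26), SP5 (0.19), SOX9 (0.041) and RNF43 (0.014) were higher with CDCA8siRNA in Huh7. The rest of the 13 targets were lower there. GLUL, the glutamine synthetase of hepatocytes around the central vein, was named after its values were seen; it measured 38.9 and 31.8 RPKM in Huh1 and 28.4 and 25.1 RPKM in Huh7 and was not called for CDCA8siRNA (adjusted p = 0.197, limma).

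Between the lines 58 of the 76 pathway genes were called, or 76.3%, near the 71.2% of all genes. Wnt ligand WNT5A, which mostly signals without beta-catenin, measured 41.3 and 39.4 RPKM in Huh1 and 0.0163 and 0.0155 RPKM in Huh7. It lay opposite to DKK1, with a log2 difference Huh7 minus Huh1 of −5.35 (adjusted p = 4.49e-09, limma). Among common targets higher in Huh7 were TNFRSF19 (4.17), BMP4 (3.0), LGR5 (2.92), SOX9 (2.55) and JAG1 (2.32). Of the 13 tested targets, 9 were called higher in Huh7 and 2 lower. Over all 12148 genes tested, 5162 were called higher and 3492 lower. TNFRSF19, LGR5 and CD44, another target called higher, reached 1 RPKM only in Huh7 and so entered the test through that line. DKK3 (2.81) and TCF7L1 (2.78) were also higher there. Of the TLE (Groucho) corepressors, TLE4 was higher (2.17) and TLE3 lower (−2.16) in Huh7, and TLE1 (1.23) and TLE2 (1.85), named after their values were seen, were also called higher there. TCF7L1, TLE4 and TLE2 also reached 1 RPKM only in Huh7, and WNT5A only in Huh1. Each of them entered the test through the line where it was high.

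**Figure D4:**
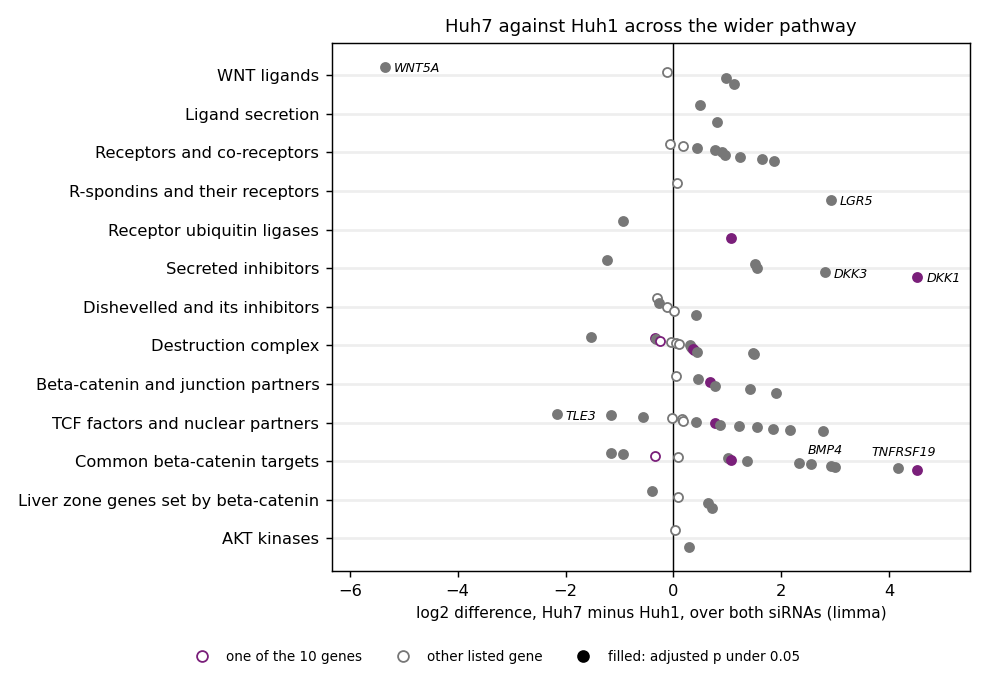
log2 difference of each tested pathway gene, Huh7 minus Huh1 over both siRNAs (limma), by role, with the 10 genes in purple and genes past an adjusted p of 0.05 filled. DKK1 at 4.52 and WNT5A at −5.35 lie at the ends, and AXIN2 and APC are the open purple points left of 0.

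The profile of AXIN2 over the 4 libraries, as centred log2(RPKM + 1), was compared with that of every tested gene by Euclidean distance. The nearest were ABCF3 (0.0195), PIGB (0.0309) and TAF1 (0.0312). ABCF3 measured 28.8 and 28.4 RPKM in Huh1 and 20.4 and 24.4 RPKM in Huh7, the same order of libraries at a higher level, apart from the Huh1 pair. With 4 points such a match is common: 79 genes lay within a distance of 0.1.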

How the data were processed

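RNA from 4 libraries was sequenced and, per the labels, each has a table with 1 row per RefSeq transcript. The values are RPKM, computed by the authors after CASAVA 1.8.2 and TopHat2 2.0.9 on build hg19 (submitters' processing notes); the deposited RPKM files are the only values used. Dose and time come from the study's methods. The 10 genes and the pathway and marker lists were chosen with earlier results of these data known.

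Values were analysed as log2(RPKM + 1), for the 12148 of 18398 rows that reached 1 RPKM anywhere. limma 3.58.1 (R 4.3.3) was fitted across all of them with siRNA and cell line as terms and a mean-variance trend, leaving 1 residual degree of freedom and 7.48 prior degrees of freedom, and was tested on simulated data. Benjamini-Hochberg adjusted p-values cover all tested genes. With 1 library per condition, p-values measure the spread between the lines' responses, and values within a line have no test. Reads were recovered from the transcript length at which all 4 RPKM values are whole reads or whole parts of a read divided among places. That length was first sought within 20% of the annotated length. Where none was found, the length nearest to that of any transcript of the gene was taken, without the limit of 20%. GSK3B, TCF7L2, ZNRF3 and LGR5 were such cases. Ratios have exact (Clopper-Pearson) 95% intervals, which cover counting error only. Python 3.11.15, scipy 1.17.1, pandas 2.3.3 and numpy 2.4.6 were used. The text names the 10 genes, their paralogs, CDCA8, pathway genes called for CDCA8siRNA, the 10 with the largest called line difference, and the 3 nearest AXIN2. Cell type markers are named as well, and SP5, CD44, GLUL, TLE1 and TLE2 are named outside these rules. Other filters, scalings, a pseudocount of 0.1 RPKM and other limma designs were tried.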

Additional observations from a re-analysis of the deposited data

Results flagged for a closer look

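Opposite directions in Huh1 and Huh7 were seen for 7 of the 10 genes, each higher with CDCA8siRNA in Huh1 and lower in Huh7. Among the 8 tested genes 5 had opposite signs, beside 31.7% of all genes tested, a share that counts both directions. Under quantile normalization CTNNB1 and ZNRF3 lost their opposite signs, and APC and AXIN2 gained them. Opposite directions were also seen for other genes named above, and for 8 of these the difference between the lines is given here. With 1 library per condition the difference between the lines was not tested for any of them. As the log2 response in Huh7 minus that in Huh1, the value was −1.78 for DKK1, on 10 and 50 reads in one line against 1305 and 830 in the other. TCF7L2 gave −0.37, GSK3B −0.30 and CTNNB1 −0.13. LEF1 gave −0.29 and NKD1 −0.0805, both from at most 16.5 reads in any library. ZNRF3 gave −0.0871, which is 0.772 counting SDs. Among the other genes LGR5 gave −0.73, TNFRSF19 −0.38, TCF7 −0.25 and TCF7L1 −0.099. TLE1 had log2 differences of 0.28 in Huh1 and −0.30 in Huh7, and TLE2 of 0.043 and −0.37. The reverse, lower in Huh1 and higher in Huh7, held for ABCF3 with 0.27, RNF43 with 0.0924, NKD2 with 0.0831 and GSK3A with 0.0706.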

How the results depend on the processing

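The count of genes called for CDCA8siRNA, 776, depended on the fit. It was 1248 under quantile normalization, 45 by limma without the trend, and 0 both without a filter on low values and without the cell line term (limma, with 2050 and 75 genes at an unadjusted p under 0.05). Of the 10 genes, none that a setting tested was called for CDCA8siRNA. The count called between lines, 8654, became 5433 without a filter, where 2 of the 10 genes, CTNNB1 and ZNRF3, were called instead of 6 of 8. The counts at 2-fold, 54 in Huh1 and 182 in Huh7, became 249 and 489 with a pseudocount of 0.1 RPKM. Requiring 1 RPKM in each line changed the counts at 2-fold between lines from 3239 to 2039 with NCsiRNA and from 3302 to 2037 with CDCA8siRNA. The fewer genes kept bear on that last change; the other causes were not tested.

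For the 8 genes that passed the minimum, all 63 alternative values over both lines kept direction and call for CDCA8siRNA; 49 of 63 did so between lines, 8 lost the call and 6 gained it, with no reversal. Within a line or an siRNA, 174 of 188 values moved by less than their 95% counting error. The main fit pairs the siRNAs by cell line, and its unpaired counterpart is the fit without the cell line term. With 1 library per condition no library was left out. Depth limits LEF1 and NKD1, each with at most 16.5 reads.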
